A study of Rattus norvegicus with 6 samples.

Results

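Danger signals and the Toll-like receptor machinery that senses them were followed through 10 genes in rat liver RNA after tienilic acid (TA). The set was chosen by gene symbol: the danger signals Hmgb1, S100a8 and S100a9, the receptors Tlr2 and Tlr4 with the co-receptor Cd14, the adaptor Myd88, the feedback genes Nfkbia and Nfkbiz, and the inflammasome sensor Nlrp3. Probe sets that carry 1 of these symbols alone numbered 11 of 31042, for 9 of the 14217 genes so represented. Nlrp3 had no such probe set and was not analysed here. Probe sets were tested if their mean exceeded the 40th percentile of all means, 2.82 (log2), and 9 of the 11 did, for 8 genes. Tlr4 and a second probe set of Nfkbiz were below it and are given as values only.

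TA is a uricosuric diuretic that was withdrawn because of hepatitis, and the series title asks whether danger signals take part in its early effects. Male Sprague Dawley rats received TA at 100 mg/kg by gavage, dissolved in sodium bicarbonate, or sodium bicarbonate alone as vehicle. One schedule ended 6 h after a single dose and the other at 24 h, with a further dose given at 16 h. For either schedule there were 2 arrays from single TA animals and 1 vehicle array made from RNA pooled from 2 rats, which makes 6 arrays and 8 animals. A vehicle pool has no replicate, and both animals of a time share it. Every error below starts from the spread between the TA animals of the 2 times (2 residual degrees of freedom). The limma fit then draws it towards that of all probe sets tested (1.6 prior degrees of freedom). An error is therefore not the animal spread alone.

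Danger signals are molecules that cells release or expose when injured. Toll-like receptors on macrophages and other cells bind them, and most of these receptors signal through the adaptor Myd88 to the transcription factor NF-kB. NF-kB in turn switches on its own inhibitor Nfkbia and the nuclear co-factor Nfkbiz, which makes both genes read-outs of the pathway as well as parts of it. In liver, Kupffer cells, the resident macrophages, carry much of this machinery.

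The arrays were alike in scale, with medians between 3.27 and 3.31 (log2). Of the defining hepatocyte genes, Alb (albumin) lay between 16.54 and 16.67 on all 6 arrays and Apoa1, a plasma lipoprotein, between 15.20 and 15.58. The array settings give fluidics times but name no run. Arrays were grouped by the hour of the hybridization entry alone, without its date or minutes. The vehicle pool and TA animal 1 of 6 h then fall together and the other 4 arrays fall together. The 6 h comparison thus spans both of these inferred runs and the 24 h comparison does not. The gap between the 3′ and 5′ controls for GAPDH, which widens as RNA degrades, was 2.26 (log2) in TA animal 1 of 6 h and 1.82 to 2.04 elsewhere. The same gap for actin did not set that array apart, at 4.31 within a range of 4.17 to 4.36.

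At 6 h the receptor Tlr2 and the NF-kB co-factor Nfkbiz lay above both vehicle pools in both TA animals, by 0.53 and 0.61 on the log2 scale against the pool of their time, while the adaptor Myd88 lay below both pools, at -0.74. At 24 h the differences of Tlr2 and Nfkbiz from the vehicle pool were each 0.01. The readings of the danger signals differed in spread. Hmgb1 lay within 0.23 of its pool at either time and S100a8 within 0.09. S100a9 spread over 1.45 (log2), with the 24 h pool highest and the 6 h pool and 24 h animal 1 level at the bottom. No probe set of the set passed limma's test at either time, with a smallest adjusted p of 0.76 at 6 h and 1 at 24 h. Over all 18625 probe sets tested, 0% were called at 6 h and 0.00537% at 24 h, so that the absence of calls is not particular to these genes.

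**Figure D1:**
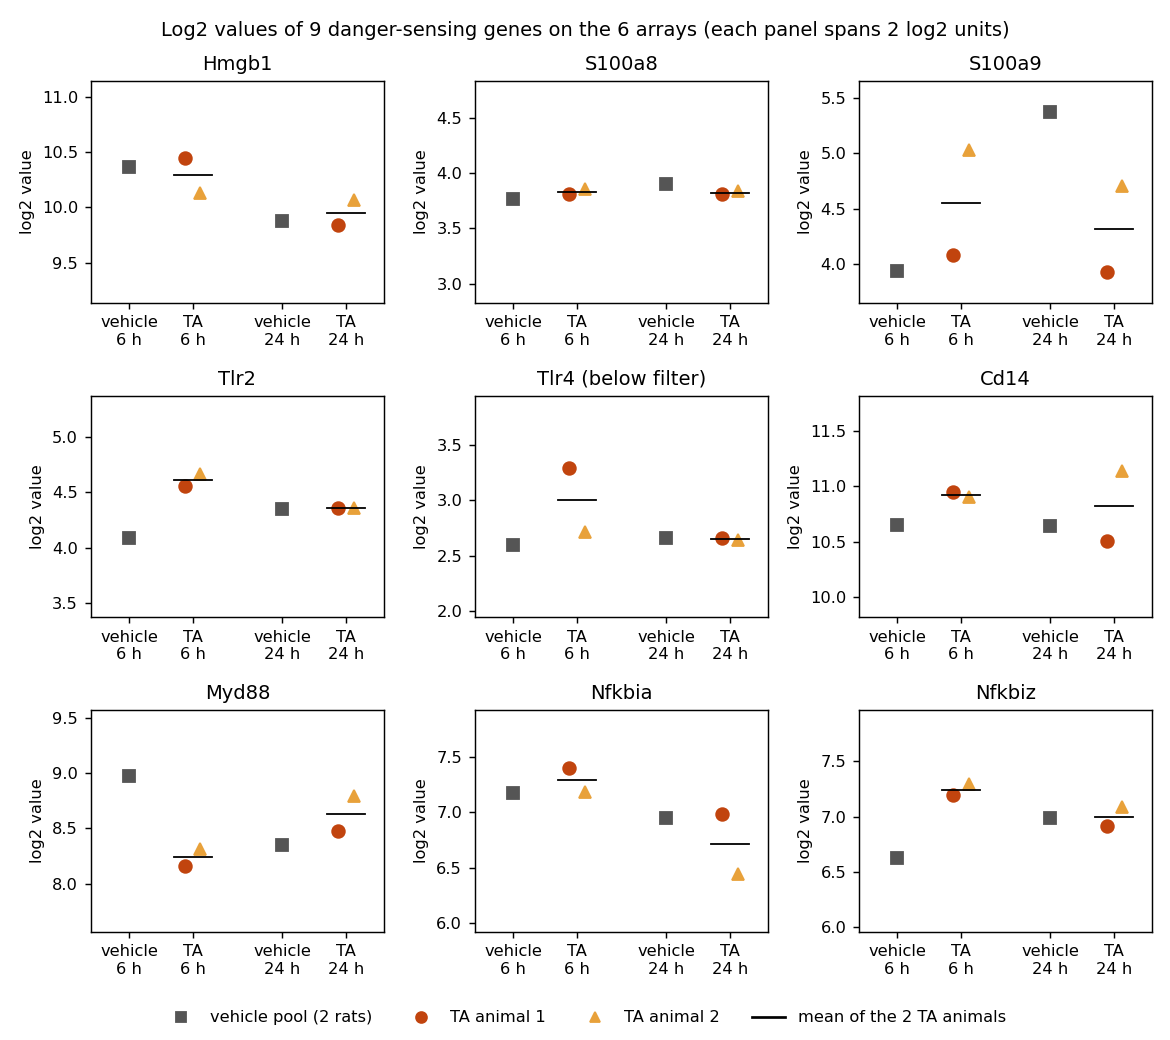
Log2 value (y axis) of 9 danger-sensing genes in the vehicle pools (squares) and in TA animals 1 (circles) and 2 (triangles) at 6 h and 24 h, with the mean of the 2 animals as a line; every panel spans 2 log2 units and there is no error bar, since each point is 1 array. Tlr2 and Nfkbiz have both 6 h animals above both pools, Myd88 has them below, and S100a9 has its vehicle pools at 3.93 and 5.37.

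Hmgb1 is a chromatin protein that becomes a ligand of Tlr4 and other receptors once it leaves the cell. Its probe set read 10.36 in the vehicle pool of 6 h and 10.44 and 10.13 in the TA animals. At 24 h it read 9.87 in the pool and 9.84 and 10.07 in the animals. The animals thus lay on either side of the pool at both times, and the differences were -0.08 ± 0.20 at 6 h and 0.08 ± 0.20 at 24 h (log2, SE, n = 2 TA animals). Both 24 h animals were below both 6 h animals, and the 24 h pool was 0.49 below the 6 h pool. The Hmgb1 arrays thus split by schedule and not by TA. The 2 highest, at 10.36 and 10.44, were also the 2 arrays of the inferred run that holds the 6 h pool. Time, run and everything else that differed between the 2 pools cannot be told apart. A second probe set of Hmgb1 stayed between 3.08 and 3.10 on all arrays. The gene has processed pseudogenes, and a probe set shared by name with 1 of them was left out, so the part of such copies in the signal is not known.

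S100a8 and S100a9 are the subunits of calprotectin, a protein that neutrophils and monocytes carry in bulk and that acts on Tlr4 when released. S100a8 read 3.76 in the 6 h pool and 3.81 and 3.85 in the animals, then 3.90 in the 24 h pool and 3.81 and 3.84 in the animals. Its whole range over the 6 arrays was 0.13, and its differences were 0.07 ± 0.09 at 6 h and -0.07 ± 0.09 at 24 h (limma, adjusted p = 1 at both). The values of this table are compressed near its floor, so a small change of a low gene would not show.

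S100a9 read 3.93 in the 6 h pool, 4.08 in animal 1 and 5.03 in animal 2. At 24 h it read 5.37 in the pool, 3.93 in animal 1 and 4.70 in animal 2. Both animals were above their pool at 6 h and below it at 24 h, but all 4 lay between the 2 pools or level with the lower one. The differences were 0.62 ± 0.57 at 6 h and -1.06 ± 0.57 at 24 h, neither called (limma, adjusted p = 1 at both), and the TA animals themselves differed by 0.95 at 6 h and 0.78 at 24 h. Measured from the other schedule's pool, the sign turned, to -0.82 at 6 h and 0.38 at 24 h. The readings of S100a8 kept within 0.13 on arrays over which those of S100a9 spread by 1.45. Both genes read low on a scale that is compressed near its floor. Whether the 2 subunits changed by like amounts thus cannot be told here.

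Neutrophil markers were near the floor on all arrays. Of 14 listed markers 8 had a probe set and 1 passed the filter, Itgam, an integrin chain, at 2.86 to 2.96. The defining marker Csf3r, the receptor of the neutrophil growth factor, stayed between 2.26 and 2.30, and Mpo and Elane were not analysed here. The summed level of the 8 markers lay between 5.38 and 5.40 (log2) in the pools and animals of both times, over which S100a9 spread. The monocyte marker Ccr2 stayed between 2.54 and 2.57. Of the 5 monocyte markers past the filter 3 were above the pool in both animals at 6 h and 1 at 24 h, beside 22.9% and 28.1% of all genes. Below it in both were 0 and 1, beside 38.4% and 34.5%.

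Tlr2 recognises bacterial lipoproteins and several danger signals. It read 4.09 in the 6 h pool and 4.56 and 4.66 in the TA animals, and at 24 h 4.35 in the pool and 4.36 in each animal. The 6 h animals were the highest of the 6 arrays and did not overlap with any other. The difference at 6 h was 0.53 ± 0.10 (log2, SE, n = 2 TA animals; limma, adjusted p = 0.76) and was not called. Measured from the 24 h pool it was 0.26, and the 2 pools differed by 0.26 themselves. At 24 h the difference was 0.01 ± 0.10 and the animals agreed to within 0.003. Like S100a9, Tlr2 read low on a scale that is compressed near its floor, so a small change at 24 h might not show. The 6 h pool, at 4.09, still lay below all arrays of 24 h. The part of compression in the 24 h agreement was not tested.

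Tlr4, the receptor of lipopolysaccharide and of Hmgb1 and calprotectin, was near the floor on 5 of the arrays. It read 2.60 in the 6 h pool, 3.29 in animal 1 and 2.71 in animal 2, and 2.66 in the 24 h pool and 2.66 and 2.64 in the 24 h animals. Animal 1 of 6 h alone stood apart. It did not pass the filter, and fitted without one its 6 h difference was 0.40 ± 0.29 (limma, adjusted p = 1). This array had the highest GAPDH gap and an actin gap within the range of the others. In that animal the 8 stellate cell and fibroblast markers past the filter also had a median difference of 0.46 from the pool, against -0.11 in animal 2, and the summed level of all 10 was 13.383 in the pool and 13.805 and 13.287 in the animals. At 24 h, when Tlr4 was level, 6 of these 8 were below the pool in both animals and 0 above, beside 34.5% and 28.1% of all genes. Their medians were then -0.69 and -0.18. The summed level of all 10 was 12.97 in the 24 h pool and 12.337 and 12.808 in the animals. The part of other cells or of RNA integrity in the Tlr4 value was not tested.

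Cd14 binds lipopolysaccharide and hands it to Tlr4, and macrophages express it at a high level. It read 10.65 in the 6 h pool and 10.95 and 10.90 in the animals, which were above both pools, and 10.64 in the 24 h pool. The 24 h animals lay on either side of their pool, at 10.50 and 11.13, the lowest and the highest of the 6 arrays. The differences were 0.28 ± 0.30 at 6 h and 0.18 ± 0.30 at 24 h (limma, adjusted p = 1 at both). The 2 pools agreed to within 0.01, unlike those of Tlr2. At 6 h the animals were 0.04 apart and at 24 h 0.63, and the standard error, which pools both times, carries the spread of 24 h.

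Macrophage markers were read beside these receptors, and limma called none of them at either time, with 0 at an unadjusted p under 0.05. Of 15 listed markers of Kupffer cells and macrophages 11 had a probe set and all 11 passed the filter. At 6 h 6 of them were higher than the pool in both animals and 1 lower, with a median difference of 0.29 in animal 1 and 0.06 in animal 2, and at 24 h 0 were higher in both and 3 lower, with medians of -0.21 and 0.07. Of all genes 22.9% were higher and 38.4% lower at 6 h, and 28.1% and 34.5% at 24 h. With quantile normalization the 6 h counts of the markers were 8 and 1, beside 34.5% and 29% of all genes. Their summed level was 13.574 in the 6 h pool, 13.881 and 13.495 in the 6 h animals, 13.473 in the 24 h pool, and 13.285 and 13.545 in the 24 h animals (log2). No defining marker with a probe set was at the floor. Cd68, a lysosomal glycoprotein, lay between 8.20 and 8.73, and Clec4f, a Kupffer cell lectin, between 11.62 and 12.22. Cd163 lay between 7.72 and 8.64, with the animals on either side of the pool at both times. The defining marker Marco was not analysed here. In animal 1 of 6 h Tlr2, 0.47 above its pool, lay below the markers Adgre1 (0.73) and C1qa (0.67), and in animal 2 Tlr2, 0.58 above, lay beyond Adgre1 (0.36), the highest of the 11 there. The part of macrophage number in the receptor values was not tested, and in a bulk sample fewer cells of a type and less RNA per cell cannot be told apart.

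**Figure D2:**
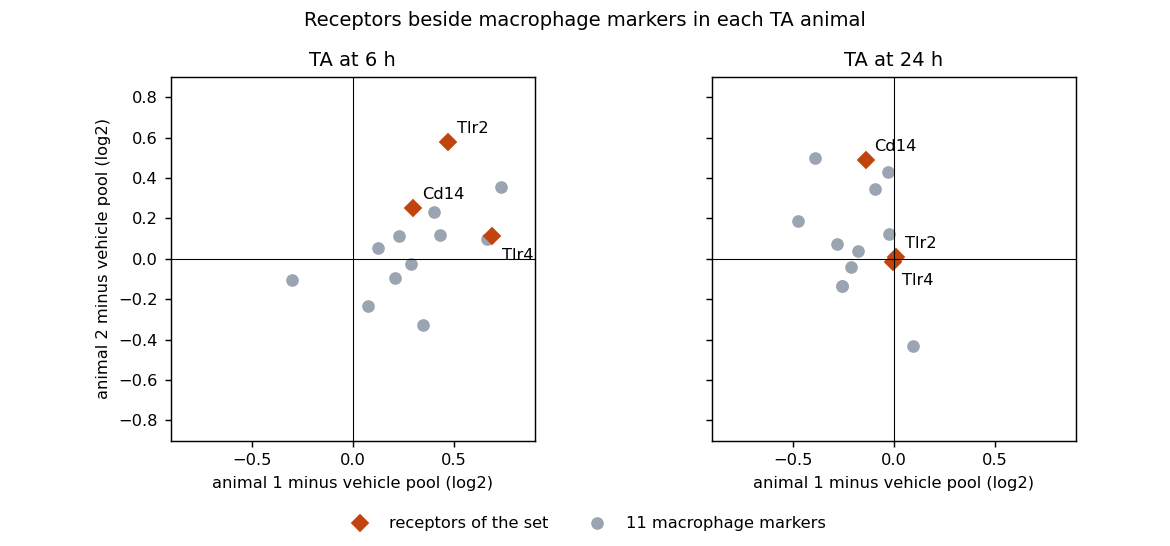
Log2 difference from the vehicle pool in TA animal 1 (x axis) and animal 2 (y axis) for Tlr2, Tlr4 and Cd14 (diamonds) and for 11 macrophage markers (circles), at 6 h and 24 h; each point is 1 gene and there is no error bar. At 6 h Tlr2 lies above all markers on the animal 2 axis, while Adgre1 (0.73) and C1qa (0.67) lie beyond it on the animal 1 axis, and at 24 h it lies at the origin while Cd14 is high in animal 2 only, at 0.49.

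Myd88 couples nearly all Toll-like receptors, and the receptor of interleukin 1, to their kinases. It read 8.97 in the 6 h pool and 8.16 and 8.32 in the 6 h animals, then 8.35 in the 24 h pool and 8.47 and 8.79 in the 24 h animals. The 6 h pool was the highest of the 6 arrays and the 6 h animals were the lowest. The difference at 6 h was -0.74 ± 0.19 (limma, adjusted p = 0.80) and at 24 h 0.28 ± 0.19 (limma, adjusted p = 1). Against the 24 h pool, which lay 0.62 below that of 6 h, the 6 h difference shrank to -0.12, and against the 6 h pool the 24 h difference turned to -0.34. The size at 6 h thus rests on the pool of that time.

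Nfkbia is the inhibitor that holds NF-kB in the cytoplasm, and its gene is among the fastest NF-kB targets. It read 7.17 in the 6 h pool and 7.40 and 7.18 in the animals, then 6.95 in the 24 h pool and 6.99 and 6.44 in the animals. Animal 2 of 24 h was the lowest array, 0.51 below its pool, and the 6 h animals lay above both pools, animal 2 by only 0.01. The differences were 0.12 ± 0.28 at 6 h and -0.23 ± 0.28 at 24 h (limma, adjusted p = 1 at both).

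Nfkbiz is a nuclear member of the same inhibitor family that opens a second wave of NF-kB targets, and Toll-like receptor signals induce it strongly in macrophages. It read 6.63 in the 6 h pool and 7.19 and 7.29 in the animals, which were above every other array. At 24 h it read 6.98 in the pool and 6.91 and 7.08 in the animals. The difference at 6 h was 0.61 ± 0.13 (log2, SE, n = 2 TA animals; limma, adjusted p = 0.76), and against the 24 h pool 0.26. At 24 h it was 0.01 ± 0.13, with the animals on either side of the pool. The second probe set of Nfkbiz read 2.52 to 2.54 on all arrays and shows no difference of its own.

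**Figure D3:**
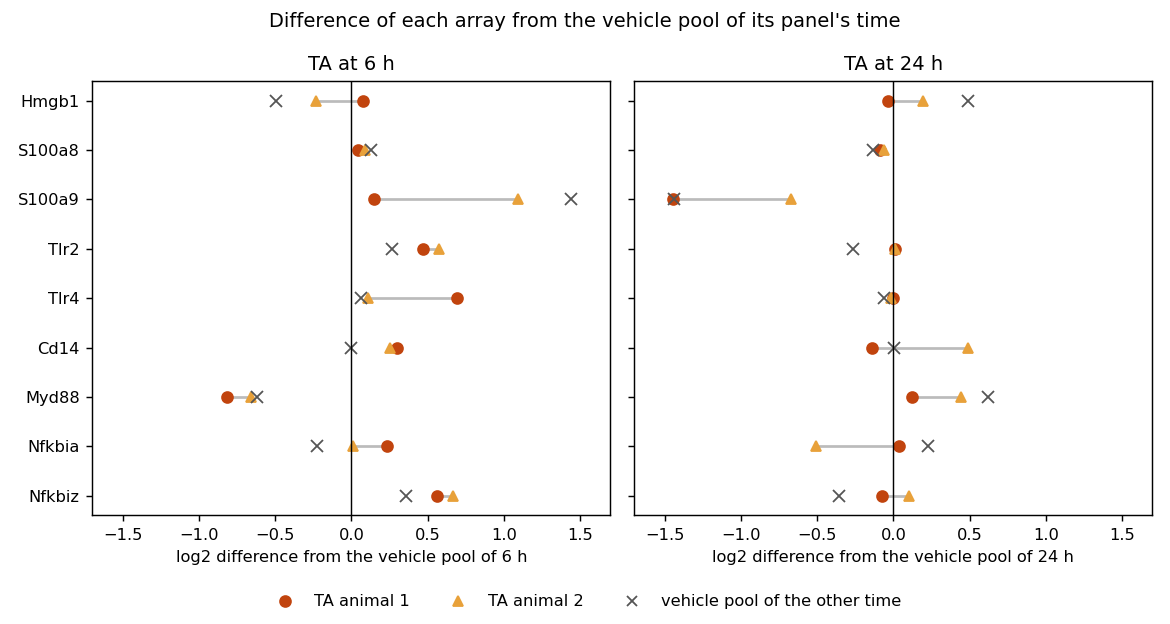
Log2 difference (x axis) of TA animals 1 (circles) and 2 (triangles), joined by a line, from the vehicle pool of their time, and of the vehicle pool of the other time (crosses), for 9 genes at 6 h (left) and 24 h (right). For Tlr2 and Nfkbiz at 6 h the crosses, at 0.26 and 0.36, lie between 0 and the animals, and for S100a9 and Hmgb1 the crosses lie beyond both animals or level with one.

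Set against the whole array, more of the set lay above the vehicle pool at 6 h, and as many lay above as below at 24 h. Of the 8 genes past the filter, 6 were above the vehicle pool in both animals at 6 h (S100a8, S100a9, Tlr2, Cd14, Nfkbia and Nfkbiz) and 1 below (Myd88), where 22.9% of 10449 genes were above and 38.4% below. Their median difference was 0.20, and that of all genes -0.03. At 24 h 2 were above (Tlr2 and Myd88) and 2 below (S100a8 and S100a9), where 28.1% and 34.5% of all genes were, and the median was 0.01. An unadjusted p under 0.05 in limma's test was reached at 6 h by 3 of the 9 probe sets, Tlr2, Nfkbiz and Myd88, beside 5.84% of all, and at 24 h by 0, beside 5.28%. With quantile normalization 34.5% of all genes were above the pool in both animals and 29% below at 6 h, while the counts of the set stayed at 6 and 1. They were 5 and 1 when the arrays were centred on their medians, beside 22.3% and 40% of all genes. Counted against both pools at once, 4 genes were above at 6 h (Tlr2, Cd14, Nfkbia and Nfkbiz) and 1 below (Myd88), where 13% and 20.4% of all genes were, and at 24 h 1 was above (Tlr2) and 0 below, where 14.6% and 24.6% were. Both animals were on opposite sides of their pools at the 2 times for 3 of the 8 (S100a8, S100a9 and Myd88), beside 17% of all genes. A gene counts by sign alone, whatever its size. Tlr2 was counted at 24 h on 0.0115 and 0.0086, and Nfkbia at 6 h on 0.0111 in animal 2. The differences of S100a8 were at most 0.09 in size. The set was put together with earlier results of these data known, so these counts describe it and test nothing.

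The promoters of the feedback genes and of Tlr2 are shown because these are the genes of the set whose windows hold the binding motif of NF-kB, the factor this pathway ends in. Windows of 250 bases before the gene start were read from RefSeq's table for GRCr8, which held 9 of the 10 genes; S100a8 was not in it. They were searched on both strands for the NF-kB consensus motif, which 3.54% of 33469 such windows held, and 3 of the 9 did: Tlr2, Nfkbia and Nfkbiz. Each is given 5′ to 3′ on the strand of its gene, with the motif in capitals.
Tlr2 (chr2:171504558-171504807, minus strand): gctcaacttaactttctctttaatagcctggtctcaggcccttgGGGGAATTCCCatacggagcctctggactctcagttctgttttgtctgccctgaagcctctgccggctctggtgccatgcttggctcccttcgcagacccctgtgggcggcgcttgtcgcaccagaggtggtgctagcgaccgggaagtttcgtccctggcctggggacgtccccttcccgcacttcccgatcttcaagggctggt
Nfkbia (chr6:78597073-78597322, minus strand): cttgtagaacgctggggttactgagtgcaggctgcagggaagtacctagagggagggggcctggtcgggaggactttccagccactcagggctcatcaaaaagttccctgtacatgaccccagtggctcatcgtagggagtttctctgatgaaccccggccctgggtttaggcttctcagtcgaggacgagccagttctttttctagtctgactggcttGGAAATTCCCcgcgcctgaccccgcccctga
Nfkbiz (chr11:58251471-58251720, plus strand): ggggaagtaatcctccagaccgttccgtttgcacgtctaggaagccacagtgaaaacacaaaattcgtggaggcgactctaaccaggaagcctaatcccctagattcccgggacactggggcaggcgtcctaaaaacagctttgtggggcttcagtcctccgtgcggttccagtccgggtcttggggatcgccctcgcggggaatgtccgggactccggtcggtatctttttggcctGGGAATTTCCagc
In Tlr2 the capitals span 11 bases, from 206 to 196 before the start, because 2 matches on the gene's strand and 1 on the other overlap. In Nfkbia the match is on the other strand, 31 to 22 before the start, and in Nfkbiz on the gene's strand, 13 to 4 before it. Tlr2 and Nfkbiz, with 0.53 and 0.61, had the 6 h differences closest to passing the test, and Nfkbia, with a match of the same motif, had 0.12. Of the genes whose windows held no match, Myd88 had -0.74, S100a9 0.62, Cd14 0.28 and Hmgb1 -0.08, and Tlr4, below the filter, 0.40. A link between the motif and these differences was not tested. A match describes letters in a window and is not a measured binding site.

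Other danger signals, a list of 24, had 18 genes past the filter. At 6 h 6 were above the pool in both animals and 3 below, and at 24 h 4 were above and 8 below, with medians of 0.10 and -0.12. Of all genes 22.9% were above and 38.4% below at 6 h, and 28.1% and 34.5% at 24 h. With quantile normalization 10 were above and 3 below at 6 h, beside 34.5% and 29% of all genes. None was called by limma at either time, and 0 and 1 had an unadjusted p under 0.05, beside 5.84% and 5.28% of all probe sets. Fn1, fibronectin, whose fragments act on Tlr4, read 13.60 in the 6 h pool and 13.35 and 13.50 in the animals, and 13.30 in the 24 h pool and 12.70 and 12.77 in the animals, a 24 h difference of -0.57 ± 0.12 (limma, adjusted p = 0.90). In the same animals the markers of stellate cells and fibroblasts, which also make matrix, had medians of -0.69 and -0.18 with 0 called, and their part in the Fn1 value was not tested. Hmgn1, a nucleosome binding protein that can act as an alarmin, had differences of -0.16 ± 0.09 and 0.14 ± 0.09.

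Of 23 other Toll-like receptors, co-receptors and related sensors, 12 passed the filter. At 6 h 5 were above the pool in both animals and 2 below, beside 22.9% and 38.4% of all genes. At 24 h 3 were above and 5 below, beside 28.1% and 34.5%. Centring each array gave 3 and 3 at 6 h, beside 22.3% and 40% of all genes, so that the 6 h split depends on the scaling. Medians were 0.06 at 6 h and -0.015 at 24 h (log2). Limma called 0, and 1 at each time had an unadjusted p under 0.05, beside 5.84% and 5.28% of all probe sets. Unc93b1, which escorts the nucleic acid sensing receptors to endosomes, stood highest at 6 h. It read 8.49 in both pools, 9.13 and 9.19 in the 6 h animals, and 8.54 and 8.80 in the 24 h animals. Its 6 h difference of 0.67 ± 0.15 was thus the same against either pool (limma, adjusted p = 0.78). Lbp, the plasma protein that passes lipopolysaccharide to Cd14, read 10.13 in the 6 h pool, 10.05 and 9.80 in the 6 h animals, 10.17 in the 24 h pool, and 8.99 and 9.25 in the 24 h animals. Both 24 h animals were below every other array (limma, adjusted p = 0.90). Tlr1, the partner of Tlr2, had -0.0036 ± 0.14 at 6 h, when Tlr2 was highest, and -0.41 ± 0.14 at 24 h, and the scavenger receptor Cd36 had 0.29 ± 0.27 and -0.18 ± 0.27.

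Kinases and adaptors below the receptors were a list of 26 genes, of which 21 passed the filter, and 14 of them (66.7%) were below the pool in both 6 h animals and 3 above, beside 38.4% and 22.9% of all genes, with a median of -0.13. With quantile normalization the counts were 12 below and 5 above, beside 29% and 34.5% of all genes. Centring gave the same counts, beside 40% and 22.3%. At 24 h 7 were below and 5 above, beside 34.5% and 28.1% of all genes. Quantile normalization gave 6 and 7 there, beside 26.6% and 33.8%. Irak2, a kinase that sustains signalling after Myd88, read 6.01 in the 6 h pool and 5.52 and 5.42 in the animals, a difference of -0.54 ± 0.11, and read 5.60 in the 24 h pool and 5.33 and 5.44 in the animals (limma, adjusted p = 0.76 at 6 h). Chuk, a kinase of the complex that marks Nfkbia for destruction, had -0.35 ± 0.12 at 6 h (limma, adjusted p = 0.85). Sigirr, a receptor that damps Toll-like receptor signals, had 0.03 ± 0.10 at 6 h and 0.52 ± 0.10 at 24 h, from 8.84 in the pool to 9.31 and 9.40 (limma, adjusted p = 0.90). None of the list was called by limma. An unadjusted p under 0.05 was reached by 2 at 6 h and 1 at 24 h, beside 5.84% and 5.28% of all probe sets.

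Subunits, inhibitors and feedback genes of NF-kB had 10 of 14 past the filter. At 6 h 2 were above the pool in both animals and 4 below, beside 22.9% and 38.4% of all genes. At 24 h 1 was above and 4 below, beside 28.1% and 34.5%. Quantile normalization gave 3 and 3 at 24 h, beside 33.8% and 26.6%. None was called by limma, and 1 at each time had an unadjusted p under 0.05, beside 5.84% and 5.28% of all probe sets. Nfkbib, a sister inhibitor of Nfkbia, was below its pool at both times, by -0.46 ± 0.12 and -0.47 ± 0.12 (log2; limma, adjusted p = 0.82 and 0.90). It read 7.51 in the 6 h pool, 7.01 and 7.10 in the 6 h animals, 7.78 in the 24 h pool, and 7.39 and 7.23 in the 24 h animals, so that all 4 animals were below both pools. Tnfaip3, the deubiquitinase A20 that ends NF-kB signalling, had 0.54 ± 0.26 at 6 h and 0.04 ± 0.26 at 24 h, and Nfkb2, a precursor subunit, -0.25 ± 0.16 and 0.44 ± 0.16.

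Around the inflammasome, the complex that Nlrp3 nucleates, 11 of 17 listed genes passed the filter. At 6 h 7 were above the pool in both animals and 2 below, with a median of 0.18, and at 24 h 0 were above and 3 below, with a median of -0.03. Of all genes 22.9% were above and 38.4% below at 6 h, and 28.1% and 34.5% at 24 h. Quantile normalization gave 8 and 2 at 6 h, beside 34.5% and 29% of all genes, and 3 and 3 at 24 h, beside 33.8% and 26.6%. None was called by limma. An unadjusted p under 0.05 was reached by 1 at 6 h and 0 at 24 h, beside 5.84% and 5.28% of all probe sets. Il1b, the cytokine that the complex matures and that NF-kB induces, read 5.20 in the 6 h pool and 6.01 and 5.64 in the animals, then 5.48 in the 24 h pool and 5.38 and 5.28 in the animals. Its 6 h animals were the highest of the 6 arrays, with a difference of 0.63 ± 0.20 (limma, adjusted p = 0.84), and at 24 h it was -0.14 ± 0.20. Il18, the other cytokine of the complex, had 0.44 ± 0.24 at 6 h, although its 24 h pool, at 7.32, lay above both 6 h animals. Casp1, the protease, had 0.17 ± 0.12 and -0.31 ± 0.12, and Gsdmd, the pore protein it cuts, 0.11 ± 0.21 and 0.17 ± 0.21.

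Genes that Toll-like receptors induce in macrophages were near the floor or, in their median, close to the level of all genes. Single genes lay further off. At 24 h Tnfaip2 was -1.25 and -0.55 from its pool in animals 1 and 2. Cxcl1 was -2.04 and -0.46 from its pool, with animal 1 near the floor at 2.14. Of 30 listed 29 had a probe set and 16 passed the filter, and Tnf, Il6, Cxcl2, Nos2, Il10 and Socs3 were among those below it, all between 1.44 and 2.77 on every array. At 6 h 2 of the 16 were above the pool in both animals and 3 below, beside 22.9% and 38.4% of all genes. At 24 h 3 were above and 7 below, beside 28.1% and 34.5%. The medians were -0.03 and -0.01. With quantile normalization the 6 h counts were 4 above and 2 below, beside 34.5% and 29%. None was called by limma, and 0 and 1 had an unadjusted p under 0.05, beside 5.84% and 5.28% of all probe sets. Irf1, a transcription factor of the interferon system, had 0.71 ± 0.39 at 6 h and -0.46 ± 0.39 at 24 h, with its 24 h pool, at 8.45, above all the animals. Ccl5, a chemokine, had -0.40 ± 0.30 and 0.63 ± 0.30, Birc3, an inhibitor of apoptosis that NF-kB induces, -0.09 ± 0.10 and 0.35 ± 0.10, and Csf1, the macrophage growth factor, -0.02 ± 0.14 and -0.34 ± 0.14 (limma, adjusted p from 0.90 to 1). Levels near the floor leave small changes of these cytokines undetectable here.

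**Figure D4:**
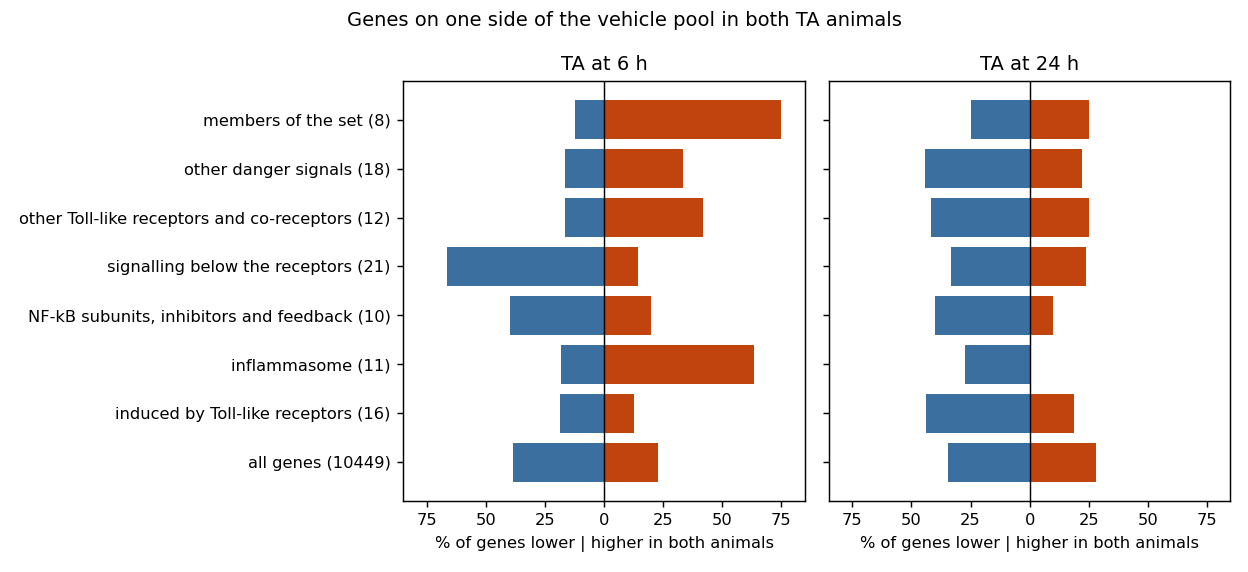
Percent of the genes past the filter (number in brackets) that lay above (right, orange) or below (left, blue) the vehicle pool in both TA animals at 6 h and 24 h, for the danger-sensing set, 6 pathway lists and all genes. At 6 h the set has 75% above and the list of signalling below the receptors 66.7% below, beside 22.9% and 38.4% of all genes, and at 24 h the set has 25% on each side. Genes are counted by sign alone, whatever the size of the difference.

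Likeness of pattern was described for the 3 genes of the set with the widest range, over the 6 arrays and 1548 genes that themselves ranged over at least 1 (log2). S100a9 was most like Marveld1 (Pearson r = 0.99), which read 3.01 and 6.98 in the 6 h and 24 h pools, then Shroom1 (r = 0.90) and Prmt6 (r = 0.89). Nfkbia was most like Lztfl1 (r = 0.99), Zmym4 (r = 0.98) and Cpz (r = 0.98), all lowest in 24 h animal 2 and highest in 6 h animal 1. Myd88 was most like Klf10 (r = 0.90), an early transcription factor that read 8.80 in the 6 h pool and 7.94 in 6 h animal 1, then Trak1 (r = 0.89) and Bloc1s6 (r = 0.88). With 6 arrays and so many genes compared, high coefficients are found by the search itself, and the points share pools and runs.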

How the data were processed

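The deposited table holds log2 values of 31099 probe sets on 6 Affymetrix Rat230_2 arrays. R 2.0.1, affy 1.5.8, RMA and GCRMA are named, per the submitters' processing notes, without saying which of RMA and GCRMA made the deposited log2 values. Low values are compressed at a floor near 2 to 3. Some probe sets lay flat above it, such as that of the lymphocyte marker Cd3e at 4.24 to 4.34, so the floor may differ between probe sets. Arrays give no counting depth, so that their number limits the precision. The other files are the deposited array settings, from which only the fluidics times (unit: other, per the file headers) were read. Runs were inferred from the hour of the hybridization entry alone, so arrays of different dates with the same hour would fall together.

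Groups came from the labels. The 57 control probe sets were left out; 20826 probe sets had 1 gene symbol in the platform annotation, and 436 had several and were not named. Probe sets above the 40th percentile of the mean (18625, for 10449 genes) entered a limma fit (version 3.58.1, R 4.3.3; 4 group means, lmFit and eBayes, 2 residual and 1.6 prior degrees of freedom), two-sided, with Benjamini-Hochberg adjustment over all of them and a threshold of 0.05. Contrasts were TA against vehicle at 6 h, at 24 h, their mean and their difference. The median standard error was 0.153. P-values set each difference against the spread between the 2 animals of each TA group, drawn towards that of all probe sets tested. The spread between vehicle pools of 1 time was not measured. No exact permutation test was run, since 2 arrays against 1 cannot reach the threshold. Where a gene had more than 1 probe set, counts of genes used the one with the highest mean. The procedure was tested on simulated data.

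The genes of the set and all lists were chosen with earlier results of these data known. Named beside the set were, in each pathway list and at each time, the genes called or else the 2 with the smallest p, those both of whose animals lay at least 2-fold above, or 2-fold below, the pool, and the defining cell markers; for likeness, the 3 genes of highest correlation. Tnf, Il6, Cxcl1, Cxcl2, Nos2, Il10, Socs3, Tnfaip2, Itgam, Adgre1 and C1qa fall outside this rule and were named after their values were seen. Alternatives covered the filter, normalization, the variance prior, the control pool, the inferred fluidics run, a replicate block, the summary of probe sets and leaving out each TA animal.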

Additional observations from a re-analysis of the deposited data

Results flagged for a closer look

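Among 40 genes named by rule, 13 had both TA animals on one side of the vehicle pool at 6 h and on the other side at 24 h. Over all 10449 genes the share was 17%. Pathway genes among the 40 were named for the smallest p in these same arrays, so the count cannot be set against that share. The difference of the effects, 24 h minus 6 h, was tested by the interaction term of limma's fit and none passed (adjusted p = 1 for each), so these are listed as values only. In the danger-sensing set the difference of effects was -1.68 ± 0.80 (log2, SE) for S100a9, 1.02 ± 0.26 for Myd88 and -0.14 ± 0.13 for S100a8. The vehicle pools of these 3 genes differed, 24 h minus 6 h, by 1.44, -0.62 and 0.13, and the TA means by -0.24, 0.40 and -0.01. For S100a9 and S100a8 the opposite directions thus came with a change of the pool and little change of the animals.

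Among signalling genes the difference of effects was 0.29 for Hmgn1, 0.69 for Nfkb2, -0.48 for Casp1, -0.78 for Il1b, 1.02 for Ccl5, -1.18 for Irf1 and 0.45 for Birc3. The pools of Il1b differed by 0.28 and its TA means by -0.49. For Ccl5 and Irf1 the pools differed by -1.17 and 1.24, and the TA means by -0.14 and 0.06. Among cell markers it was -0.37 for the macrophage marker Cd68, and -0.68 and -0.33 for Stab2 and Pecam1 of endothelium.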

How the results depend on the processing

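Of 502 values of single probe sets of the set under the alternatives, 463 kept their direction and 0 crossed the threshold of limma's test; 39 changed sign, and none of these was called in either setting. The number of called probe sets of the set was 0 in every comparison and alternative that was run. The 6 h directions of Tlr2, Nfkbiz, Cd14, Nfkbia and Myd88 held in all alternatives run, with ranges of 0.26 to 0.58, 0.26 to 0.70, 0.13 to 0.36, 0.011 to 0.35 and -0.85 to -0.12 and smallest adjusted p of 0.40, 0.48, 0.92, 0.85 and 0.63. The cause of the changes below was not tested.

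Over all probe sets, 0 were called at 6 h and 1 each at 24 h, for the mean of the times and for their difference. Against the pool of the other time the counts were 1 at 6 h and 0 at 24 h; the mean and difference of times were not run there. The 3 counts of 1 became 0 with the filter at the 60th percentile, both pools as 1 control group, the inferred fluidics run as a block and the replicate block, and 2 at 24 h and for the mean with a trend in eBayes. Leaving out each animal gave 0 to 2 at 24 h, and 0 to 0 for the mean and the difference.

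The median over the set at 6 h, 0.20, was 0.28 with no filter, 0.12 with the 60th percentile, 0.28 with quantile normalization, 0.26 against the other pool and 0.16 with the replicate block, and 0.17 to 0.20 without each animal. At 24 h, 0.01, it was 0.11 against the other pool. For the mean of times, -0.0014, it was 0.039 with the run as a block, 0.050 with the replicate block and 0.012 to 0.039 without each animal. For the difference, -0.25, it was -0.36 with no filter and -0.10 with the 60th percentile.

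Signs turned as follows. Against the other pool S100a8, S100a9 and Hmgb1 were -0.066, -0.82 and 0.415 at 6 h, and S100a8, S100a9, Myd88 and Hmgb1 0.058, 0.38, -0.34 and -0.41 at 24 h. With both pools as 1 control group S100a9 and Hmgb1 were -0.10 and 0.17 at 6 h, Myd88 and Hmgb1 -0.029 and -0.17 at 24 h, and Hmgb1 -0.34 for the difference. Quantile normalization gave 0.0044 for Hmgb1 at 6 h, and 0.013, 0.0056 and 0.0057 for S100a8, Nfkbia and the second Hmgb1 probe set over the mean of times. Centring gave 0.0012 for that probe set at 24 h, and 0.0039 for it and 0.0029 for S100a8 over the mean. The fluidics run as a block gave Hmgb1 0.080 at 6 h and -0.0013 for the difference, and the mean of probe sets -9e-04 over the times.

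TA animals 1 and 2 of the 2 times share only a number. Across the 18625 probe sets tested, animal 1's deviations from its group mean at 6 h and 24 h correlated at -0.0789. With the replicate block Nfkbiz and Tlr2 were -0.055 and -0.015 at 24 h, and Nfkbia 0.13 over the mean of times.

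Leaving out each animal gave ranges through 0. At 6 h these were -0.23 to 0.080 for Hmgb1 and -1e-04 to 0.0049 for its second probe set. At 24 h they were -0.14 to 0.49 for Cd14, -0.073 to 0.10 for Nfkbiz, -0.037 to 0.19 for Hmgb1 and -0.51 to 0.038 for Nfkbia. Over the mean of times they were -0.015 to 0.0075 for S100a8, -0.46 to 0.017 for S100a9, -0.077 to 0.079 for Hmgb1 and -0.19 to 0.080 for Nfkbia. For the difference they were -0.0013 to 0.31 for Hmgb1 and -0.42 to 0.22 for Cd14.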
